A study of Mus musculus with 24 samples.

Results

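The 5 mammary tumors with the highest level of 5 genes of squamous differentiation were compared with the 5 tumors with the lowest level, across all other genes on the array. The series holds 24 DMBA-induced mammary tumors of female BALB/c mice, each cohybridized with a universal mouse reference RNA to a 2-color array from Agilent. All mice received DMBA, a carcinogen given during puberty, and were fed a high animal fat diet (HFD), a low-fat diet (LFD), HFD until adulthood and then LFD (HFD-LFD), or LFD and then HFD (LFD-HFD). The labels also place each tumor as early or late by its time of onset. Arrays of 7 tumors (MSU_24, MSU_28, MSU_42, MSU_59a, MSU_59b, MSU_93 and MSU_96) were left out because Cy5 was dimmed over part of the slide, which left 17 of 24. For each of the 17, the log ratio given by the scanner software was averaged over the 6 probes of Krt1, Krt10, Krtdap, Sbsn and Lor to a marker score, and the top 5 and bottom 5 of this ranking are called squamous-high and squamous-low. The levels given below come from a new normalization of the same arrays. The measured values of these 5 genes chose the groups, so their difference is a description and was not tested.

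The squamous-high tumors were MSU_86 (HFD, late), MSU_97 and MSU_768 (HFD, early), MSU_51 (HFD-LFD, early) and MSU_137 (LFD, late). The squamous-low tumors were MSU_62a and MSU_67 (HFD, late), MSU_163 (HFD, early), and MSU_34 and MSU_105 (LFD, late). Thus 3 of the 5 squamous-high and 1 of the 5 squamous-low tumors had an early onset, and neither group held a tumor of the LFD-HFD diet. Slides 1 to 3 held tumors of both groups. MSU_51 was the only one of the 10 scanned in session 2. The share of probes well above background in the tumor channel was 66.8% to 81.2% in the squamous-high and 68.0% to 87.7% in the squamous-low tumors, the upper end being MSU_67. The labels do not say whether tumors came from separate animals, so that a p value measures the spread between these tumors.

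Squamous differentiation is the program by which keratinocytes of skin and other stratified epithelia leave the basal layer, exchange the basal keratins Krt5 and Krt14 for the suprabasal keratins Krt1 and Krt10, and build a cornified envelope from proteins such as involucrin, loricrin, filaggrin and the small proline-rich proteins. Normal mammary epithelium holds a luminal layer, marked by Krt8 and Krt18 and in part by hormone receptors, and a contractile myoepithelial layer, and lacks this program. Mammary tumors can nevertheless form areas of squamous metaplasia, in which keratin accumulates. Many genes of the envelope lie side by side in the epidermal differentiation complex on mouse chromosome 3.

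The stretches upstream of the start of some of these genes are given for reference, as the members of the program moved together across tumors. They are 250 bases each from RefSeq promoters (GRCm38.p6), written 5′ to 3′ on the strand of the gene. Capitals mark matches on either strand to TGANTCA (the AP-1 motif), CACGTG (an E-box) and TGTTTAC (a forkhead motif). The genes were chosen after the matches were seen, as Krtdap of the marker score, Sprr2d, Flg and Ivl with an AP-1 match, Lce3a without one, and Foxa1, the gene with the largest fall. They lie at chr7:30787655-30787904 (Krtdap, plus strand), chr3:92338890-92339139 (Sprr2d, plus), chr3:93273296-93273545 (Flg, plus), chr3:92573736-92573985 (Ivl, minus), chr3:92926231-92926480 (Lce3a, minus) and chr12:57546112-57546361 (Foxa1, minus).
Krtdap: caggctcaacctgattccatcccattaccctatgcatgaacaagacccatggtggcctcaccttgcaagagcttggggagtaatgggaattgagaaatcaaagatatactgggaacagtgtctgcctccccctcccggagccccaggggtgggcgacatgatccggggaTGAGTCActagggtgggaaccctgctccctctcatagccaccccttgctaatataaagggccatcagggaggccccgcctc
Sprr2d: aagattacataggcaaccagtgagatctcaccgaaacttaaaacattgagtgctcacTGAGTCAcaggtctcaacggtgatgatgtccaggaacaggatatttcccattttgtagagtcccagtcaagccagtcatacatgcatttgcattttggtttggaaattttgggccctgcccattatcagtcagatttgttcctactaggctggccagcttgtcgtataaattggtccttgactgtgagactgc
Flg: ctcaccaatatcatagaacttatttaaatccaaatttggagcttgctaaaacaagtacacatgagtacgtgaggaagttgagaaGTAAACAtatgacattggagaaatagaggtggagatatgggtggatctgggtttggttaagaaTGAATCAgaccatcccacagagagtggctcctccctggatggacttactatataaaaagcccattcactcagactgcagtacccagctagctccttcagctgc
Ivl: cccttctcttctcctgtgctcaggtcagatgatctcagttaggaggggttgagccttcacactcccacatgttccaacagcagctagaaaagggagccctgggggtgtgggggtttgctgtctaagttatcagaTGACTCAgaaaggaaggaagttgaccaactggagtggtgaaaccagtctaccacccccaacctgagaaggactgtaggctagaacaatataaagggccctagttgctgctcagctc
Lce3a: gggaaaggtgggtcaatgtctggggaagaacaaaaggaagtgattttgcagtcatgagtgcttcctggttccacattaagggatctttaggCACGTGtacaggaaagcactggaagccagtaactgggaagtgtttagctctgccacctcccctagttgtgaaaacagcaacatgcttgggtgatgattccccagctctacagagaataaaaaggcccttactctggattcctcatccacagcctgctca
Foxa1: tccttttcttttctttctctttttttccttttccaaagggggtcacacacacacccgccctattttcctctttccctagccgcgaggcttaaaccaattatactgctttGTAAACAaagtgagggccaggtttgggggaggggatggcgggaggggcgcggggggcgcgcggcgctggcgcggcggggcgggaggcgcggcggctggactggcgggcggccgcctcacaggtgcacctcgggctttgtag

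Among the genes that passed the test described below, 131 that were higher and 149 that were lower in squamous-high tumors had promoters in the RefSeq table outside chromosome 18. Promoters on that chromosome were left out of all these counts and shares. The AP-1 letters were in 17.3% of the 156 promoters of the higher genes and in 5.21% of the 211 promoters of the lower genes, against 5.23% of the promoters of genes tested and 6.75% of all promoters of the same length. For the forkhead letters these shares were 3.85% and 2.84%, against 2.42% and 3.17%, and for the E-box 4.49% and 8.53%, against 7.52% and 6.02%. AACNGGTT (Grainyhead) was in 1.92% and 1.90%, against 1.66% and 1.79%, and TGGGAA (RBPJ) in 24.4% and 28.4%, against 20.9% and 21.6%. These shares are a description, and several promoters can belong to 1 gene. A match is a run of letters and was not measured as a binding site.

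The labels put the tumor RNA in Cy5, whereas the methods of the study put the reference in cyanine 5. Ratios are given as Cy5 over Cy3, tumor over reference, because the Cy5 channel varied more between the 17 arrays (median SD 0.58 against 0.26 log2 units in Cy3) and because the 2 Y chromosome probes with signal were brighter in Cy3 on all 17. Levels are log2 ratios of tumor to reference, and values in a list of 5 follow the order MSU_86, MSU_97, MSU_51, MSU_137 and MSU_768 for squamous-high and MSU_62a, MSU_67, MSU_163, MSU_34 and MSU_105 for squamous-low tumors. The precision is limited by the number of arrays.

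The marker score was 2.19 in MSU_86, -1.15 in MSU_97, -1.50 in MSU_51, -1.63 in MSU_137 and -1.95 in MSU_768, in log2 units. It ranged from -4.57 in MSU_62a to -5.08 in MSU_105 in the squamous-low tumors. MSU_86 stood well above the other 4 squamous-high tumors, whereas the squamous-low tumors lay close together. At the upper border, MSU_768 was at -1.95 and the next tumor, MSU_62b, at -2.27. At the lower border, MSU_45 was at -4.51 and MSU_62a at -4.57, so that the squamous-low group was not set off from the tumors ranked just above it. Krtdap, a secreted protein of differentiating keratinocytes, had log2 ratios of 1.92, 0.22, 0.20, 0.02 and -0.74 in squamous-high and -4.66, -4.41, -3.44, -4.92 and -4.54 in squamous-low tumors. Lor, the main protein of the cornified envelope, had 1.53, -2.21, -3.21, -3.52 and -3.50 against -5.36, -5.26, -5.91, -5.57 and -5.83. All 6 marker probes were well above background on the 10 arrays. The scores of the middle tumors filled the range between the groups.

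**Figure D1:**
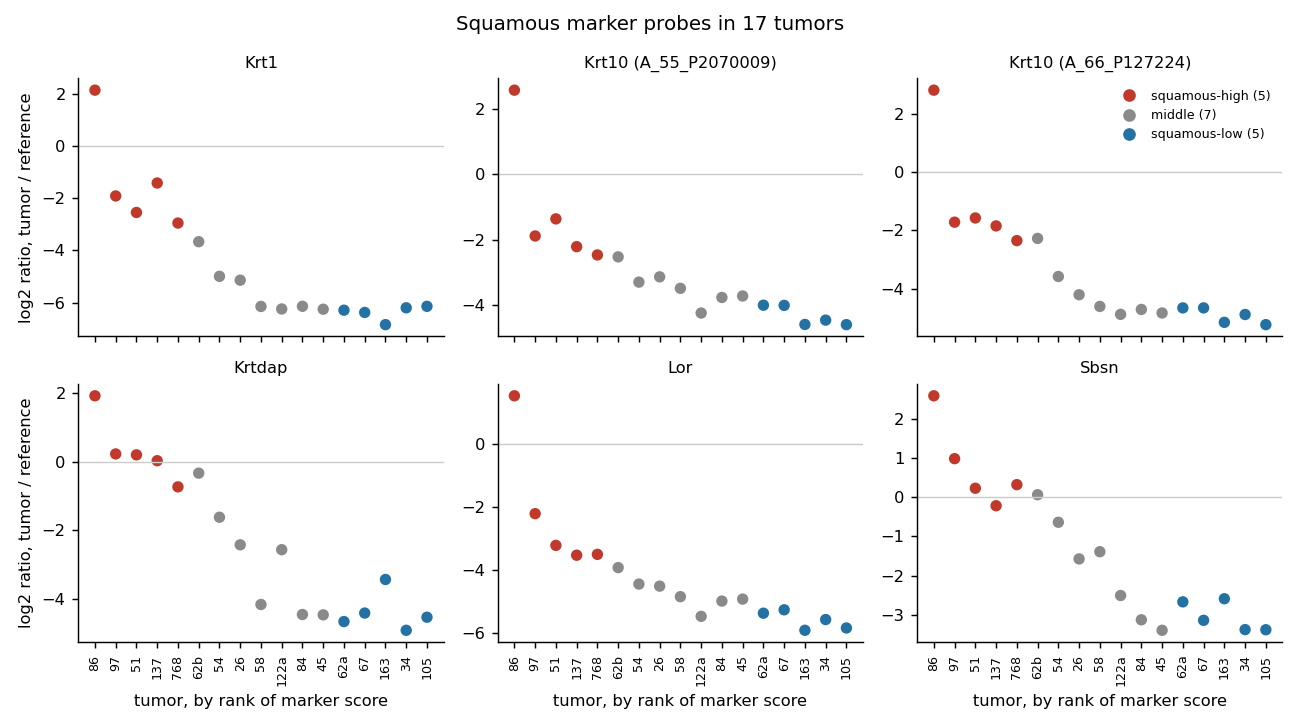
Log2 ratio of tumor to reference for the 6 probes of the 5 marker genes (1 point a tumor) in 17 tumors ordered by marker score. MSU_86 is the highest for every probe and the middle tumors form a gradient from MSU_62b at a score of -2.27 to MSU_45 at -4.51.

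Between squamous-high and squamous-low tumors, 393 of 20905 genes differed at an adjusted p under 0.05 (limma, Benjamini-Hochberg; 1.88%). Of these, 186 were higher (0.890%) and 207 lower (0.990%) in squamous-high tumors. The largest rises were those of Cstdc5, Lce3a, Sprr2d and Flg, and the largest falls those of Foxa1, Fcgbp, Pcp4 and Cnn1. Of the higher genes 80, and of the lower genes 20, were in one of the 25 gene lists described below. An unadjusted p under 0.05 was found for 2902 genes (13.9%). The 2 groups of 5 did not overlap for 778 genes (3.72%), 370 higher (1.77%) and 408 lower (1.95%), and 361 of the 393 were among them. With the marker score as a slope over all 17 tumors, 1415 genes passed (6.77%), 764 rising (3.65%) and 651 falling (3.11%) with the score. Without MSU_86 the split turned to 742 rising and 1400 falling genes, and 833 of the 1415 were among them. Of the 393 genes, 345 also passed in the slope over all 17 tumors, all with the same sign. The 10 tumors enter both fits. The median difference over all genes tested was -0.02. Since these groups were chosen by a measured value, the p of another gene measures its association with the marker score among these tumors. Each tumor is a bulk sample, in which fewer cells of a type and less RNA per cell cannot be told apart.

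The count depended on which tumors were compared. It was 227 (119 higher and 108 lower) within scan session 1, which leaves out MSU_51, 323 with onset as a covariate, and 251 among the late tumors alone, 2 against 4. Without MSU_163, an early tumor among the squamous-low, it rose to 1053, and without MSU_67 it fell to 173.

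Genes of the cornified envelope made up the largest block. Of the 59 tested members of this list, 35 were higher in squamous-high tumors, none was lower, and the median difference was 2.91 log2 units. Over all genes tested, 0.890% were higher and 0.990% lower, and these shares also stand beside the counts of all lists that follow. Their count was 28 among the late tumors alone, and between 23 (without MSU_62a) and 38 (without MSU_86) with 1 tumor left out. Sprr2d, a small proline-rich protein that is cross-linked into the envelope, had log2 ratios of 4.49, 2.48, 3.50, 3.18 and 3.27 in squamous-high and -3.31, -3.29, -2.14, -2.95 and -1.86 in squamous-low tumors. All 5 squamous-high tumors were above the reference and all 5 squamous-low tumors below it. The difference of 6.10 ± 0.40 (SE, adjusted p = 0.000172) was among the largest on the array. Flg, which bundles keratin filaments, was 2.23, -0.46, -1.08, -1.18 and -2.18 against -7.07, -6.33, -7.23, -6.53 and -5.76, a difference of 6.05 ± 0.70 (adjusted p = 0.00274). The spread within the squamous-high group came mostly from MSU_86, and the groups were still separated.

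Lce3a, a late cornified envelope protein, differed by 6.24 ± 0.78 (adjusted p = 0.00403), and Lce3b and Lce3c by 5.67 and 5.71. Cnfn (cornifelin) differed by 5.66, the calmodulin-like Calm4 by 6.04, and the stefin Stfa1, a cysteine protease inhibitor, by 5.91. The related Cstdc5, which was in no list, had the largest rise (6.33). Of the transglutaminases, which cross-link the envelope, Tgm1 (1.82) and Tgm5 (3.16) were higher, while Tgm3 differed by 0.15 ± 0.26 (adjusted p = 0.862). The plakins Ppl and Evpl, which form the scaffold of the envelope, were higher by 1.75 and 2.28. Ivl, the classical early envelope protein, differed by 2.34 ± 0.51 (adjusted p = 0.0466) and passed in only 2 of the 10 fits that left out a tumor, those without MSU_86 and without MSU_163. Some members had no probe that passed the signal filter and were not tested. Among these, Sprr2j-ps was at least 4.73-fold higher in squamous-high tumors and Csta1 at least 1.74-fold, against a squamous-low group in which the probe was not well above background; this bound sets the mean of the bright group against the lowest signal well above background on each dim array. Lipn, a lipase of the epidermis, was at least 1.63-fold higher by the same bound. Sprr2k was well above background on 3 of the 5 squamous-high arrays and at least 2.57-fold higher.

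By position (mm9, the build of the probe annotation), the stretch from the first to the last tested cornified envelope gene, chr3:90332439-94150478, held 73 tested genes outside the marker score. Of these, 29 were higher in squamous-high tumors and none was lower, with a median difference of 2.51. The kallikrein stretch on chr7:50950330-51484325 held 23 tested genes, of which 8 were higher, and the stefin A stretch on chr16:36160118-36450752 held 11, of which 3 were higher. The type II keratin stretch on chr15:101180014-101862400 held 5 higher genes of 27, and the type I keratin stretch on chr11:99095480-100128311 held 4 higher and 1 lower of 52. The interleukin-1 family stretch on chr2:24015564-24205153 held 4 higher genes of 6. Together these 6 stretches held 53 of the 186 higher genes and 1 of the 207 lower genes. Over all genes tested, 0.890% were higher and 0.990% lower. The stretches run between members of families that are also in the gene lists, so these counts partly repeat the calls of the lists.

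**Figure D2:**
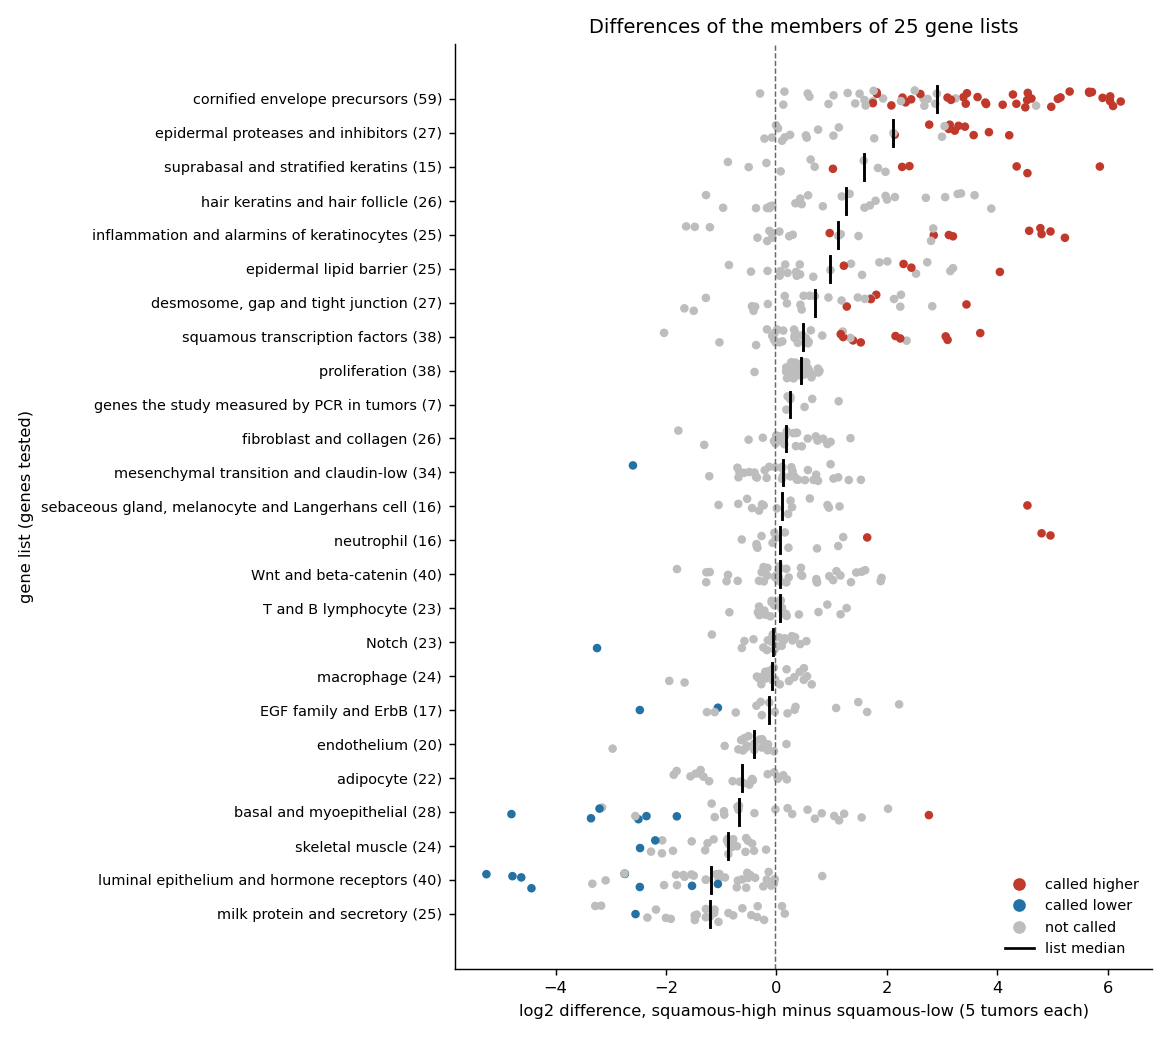
Log2 difference of squamous-high minus squamous-low tumors (5 each) for each tested gene of 25 lists, with called genes in color (adjusted p under 0.05), list medians as black bars and the median of all genes (-0.02) as a dashed line. Cornified envelope genes reach the largest rises (35 of 59 higher) and luminal and hormone receptor genes the largest falls (9 of 40 lower).

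Of 15 tested suprabasal and stratified keratins besides the markers, 6 were higher and none was lower, 12 lay above 0, and the median was 1.58. Krt4, a keratin of mucosal epithelia, differed by -0.88 (adjusted p = 0.249). Krt6b, a keratin of activated and hyperproliferative keratinocytes, had log2 ratios of 8.13, 2.02, 4.71, 3.85 and 3.75 in squamous-high and -1.79, -1.71, 0.84, -2.12 and -2.05 in squamous-low tumors, a difference of 5.86 ± 1.01 (adjusted p = 0.0165). MSU_86 lay far above the rest, and MSU_163 was the only squamous-low tumor above the reference. Without MSU_67, MSU_34 or MSU_105 its adjusted p was 0.0568, 0.0536 and 0.0504. Krt16, the partner of Krt6, was higher by 4.35, Krt13 of mucosal epithelia by 2.41, Krt6a by 2.28 and Krt80 by 1.02. Krt79, a keratin of hair canal and sebaceous duct, was 3.26, 3.94, 3.43, 2.21 and 4.17 against -2.46, -0.83, 0.69, -0.43 and -2.71 (difference 4.55 ± 0.64, adjusted p = 0.00646). Here MSU_86 was not the highest tumor. The count of keratins fell to 1 without MSU_34. Of 26 tested hair keratins and hair follicle genes none passed (6 at an unadjusted p under 0.05), with a median of 1.26, whereas 8 passed among the late tumors alone and 3 without MSU_97. Tchh, trichohyalin of the hair root sheath, differed by 3.89 ± 1.04 (adjusted p = 0.100) and Krt73 by 3.06 ± 0.78 (adjusted p = 0.0871).

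Proteases and protease inhibitors of the epidermis were higher for 11 of 27 tested genes, with none lower and a median of 2.12. Kallikreins are serine proteases that cleave the junctions of corneocytes during shedding, and 8 of them were higher. Klk8 had log2 ratios of 2.14, 2.42, 1.65, 1.61 and 0.92 in squamous-high and -2.21, -2.96, -1.38, -3.41 and -2.39 in squamous-low tumors, a difference of 4.22 ± 0.39 (adjusted p = 0.00125). Klk13 differed by 3.41 ± 0.29 (adjusted p = 0.00113), and Casp14, the caspase that processes filaggrin, by 3.30. Spink5, an inhibitor of kallikreins, was higher by 3.85. Groups overlapped for Klk10 and Klk11. The count was between 6 (without MSU_67) and 13 (without MSU_163) with 1 tumor left out.

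Of 25 tested genes of the epidermal lipid barrier 4 were higher and none lower (median 0.98). Cers3, which makes the very long chain ceramides of skin, had log2 ratios of 3.43, 0.72, 1.31, 0.33 and 0.59 in squamous-high and -3.04, -3.15, -2.35, -2.79 and -2.52 in squamous-low tumors (difference 4.05 ± 0.52, adjusted p = 0.00439). Cyp4f39, a fatty acid omega-hydroxylase of the same pathway, differed by 2.44, Pnpla1 by 1.22 and Lipm by 2.30. Of 27 tested genes of desmosomes, gap and tight junctions 4 were higher and none lower, namely Gja1 (connexin 43, 1.27), the desmosomal cadherins Dsg3 (1.81) and Dsg1a (3.44), and desmoplakin Dsp (1.71). Among the late tumors alone, 1 gene passed in each of these lists.

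Transcription factors of keratinocytes were higher for 9 of 38 tested genes and lower for none (median 0.47). Grhl3, a grainyhead-like factor needed for the epidermal barrier, had log2 ratios of 2.89, 2.15, 2.50, 1.11 and 2.49 in squamous-high and -2.15, -1.89, -0.65, -1.63 and -0.98 in squamous-low tumors, a difference of 3.69 ± 0.37 (adjusted p = 0.00191). Klf4, a zinc finger factor of the suprabasal layers, was 1.94, 1.16, 0.83, -0.32 and 1.77 against -2.35, -2.09, -0.995, -2.75 and -1.93 (3.10 ± 0.44, adjusted p = 0.00698). MSU_137 was the lowest squamous-high tumor for both, and the groups did not overlap. Trp73, a relative of Trp63, differed by 2.24 ± 0.31 (adjusted p = 0.00568), with MSU_163 at 0.80 the only squamous-low tumor above the reference. Hopx (3.07), Klf5 (2.16), Zfp750 (1.53), Prdm1 (1.39), Fosl2 of the AP-1 family (1.21) and Grhl1 (1.16) were also higher. Grhl2, another member of the grainyhead-like family, differed by -0.05 ± 0.19 (adjusted p = 0.947). Among the late tumors alone 2 of the 38 passed.

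The basal and myoepithelial list was divided. Of 28 tested genes 1 was higher and 6 were lower, with a median of -0.68. Krt14, the basal keratin, was the higher one, with log2 ratios of 3.60, 2.98, 1.55, 0.83 and 2.60 in squamous-high and -0.40, -0.42, -1.12, -0.10 and -0.22 in squamous-low tumors (2.76 ± 0.47, adjusted p = 0.0160, and 0.0526 without MSU_67). Its partner Krt5 was 2.55, 1.28, 0.95, -0.03 and 0.98 against 0.34, 0.24, -0.07, 0.89 and 0.21, and did not pass (0.82 ± 0.40, adjusted p = 0.403). Trp63, the basal master regulator, was 2.81, 1.80, 1.92, 0.64 and 1.58 against 1.38, 1.03, 1.88, 1.32 and 0.81, with overlapping groups (0.47 ± 0.36, adjusted p = 0.619). The 6 lower genes were Acta2, Cnn1, Tagln, Myh11 and Actg2 of the smooth muscle contractile apparatus and Oxtr, the oxytocin receptor. Acta2, smooth muscle actin, was -1.79, -0.30, -1.55, -1.32 and -1.39 in squamous-high and 1.53, 1.16, 0.37, 1.64 and 1.44 in squamous-low tumors (-2.50 ± 0.32, adjusted p = 0.00411). Cnn1, calponin, fell by 4.80 ± 0.72 (adjusted p = 0.00885), with MSU_163 at -0.35 the lowest of the squamous-low tumors, the rest of which were between 2.39 and 3.27.

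Luminal and hormone receptor genes were the other large block. Of 40 tested genes 9 were lower and none higher in squamous-high tumors, against 0.990% of all genes lower, and the median was -1.18. Foxa1, the pioneer factor of the estrogen receptor, had log2 ratios of -3.09, -1.16, -1.55, -3.04 and -1.73 in squamous-high and 2.28, 3.89, 1.17, 4.61 and 3.73 in squamous-low tumors. The groups were on opposite sides of the reference, and the difference of -5.25 ± 0.65 (adjusted p = 0.00395) was the largest fall among genes whose groups did not overlap. Prlr, the prolactin receptor, was 1.45, -0.77, -0.36, 1.93 and -0.88 against 4.06, 5.26, 3.00, 6.43 and 5.71 (-4.62 ± 0.75, adjusted p = 0.0125). Esr1, estrogen receptor alpha, was 0.81, -0.09, -0.24, 0.13 and -0.04 against 1.70, 1.83, 1.25, 2.14 and 1.30 (-1.53 ± 0.24, adjusted p = 0.0105). All squamous-low tumors expressed more of these receptors than any squamous-high tumor. Esr1 was well above background on 4 of the 5 squamous-high arrays. Each receptor passed in 25 of 27 other settings and in all 10 fits that left out a tumor. Neither passed among the late tumors alone (limma, adjusted p = 0.0548 for Prlr and 0.141 for Esr1) or for 4 against 4 tumors (0.0809 and 0.0925). Cited1, a coactivator of estrogen-dependent genes, fell by 4.44, Stc2 by 2.75, the chemokine Cxcl12 by 2.75 and Areg, the EGF family ligand of the pubertal duct, by 2.47. Gata3, the luminal master regulator, differed by -2.03 ± 0.50 without overlap of the groups but did not pass (adjusted p = 0.0757). Pgr, the progesterone receptor, had no probe that passed the signal filter and was not tested. The count of the list was between 6 (without MSU_67) and 13 (without MSU_137) with 1 tumor left out, and 4 among the late tumors alone.

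The luminal keratins followed this pattern less evenly. Krt19 fell by 4.78 ± 0.97 (adjusted p = 0.0330), with log2 ratios of -4.37, -0.73, -1.16, 2.14 and -0.29 in squamous-high and 2.76, 4.62, 3.37, 4.59 and 4.15 in squamous-low tumors, and it passed in 3 of the 10 fits that left out a tumor. Krt8 was -4.74, 0.80, -0.92, 2.33 and -0.24 against 1.78, 3.17, 2.16, 3.60 and 3.18, and Krt18 was -4.10, 1.20, 0.39, 3.02 and 0.41 against 2.72, 3.67, 2.60, 3.95 and 3.42. In MSU_86 both luminal keratins were far below the reference, while MSU_137 had levels within the range of the squamous-low tumors. Neither difference passed (limma, Krt8 -3.33 ± 1.08, adjusted p = 0.181, and Krt18 -3.09 ± 1.06, adjusted p = 0.207). The slope on the marker score over 17 tumors (limma) was -1.04 per log2 unit for Krt8 (adjusted p = 7.78e-05), with an adjusted p of 7.91e-05 for Krt18. MSU_86, the tumor with the highest score and the lowest Krt8 and Krt18, enters this slope. Krt5 also passed in the slope (adjusted p = 0.0389). Of the genes called between the groups, Esr1 (adjusted p = 0.0747), Areg (0.0883), Erbb4 (0.0624) and Myh2 (0.106) did not pass in it. Epcam, a pan-epithelial adhesion protein, was -1.31 in MSU_86 and 0.69 to 2.60 in the other squamous-high tumors, and 0.64 to 3.09 in the squamous-low tumors. Krt8, Krt18 and Epcam, which mark mammary epithelium, were well above background on all 10 arrays.

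**Figure D3:**
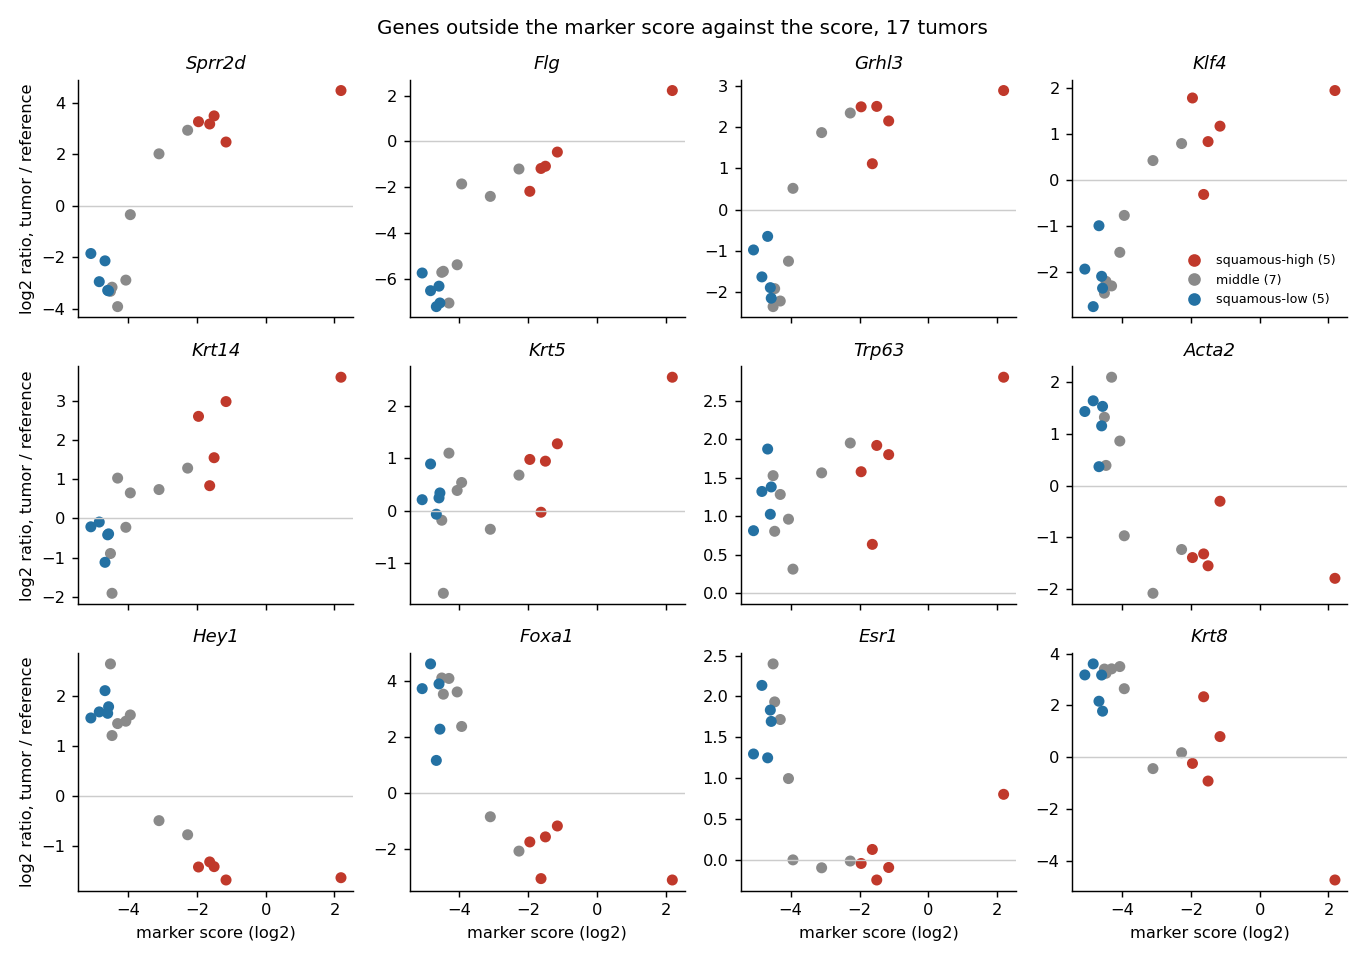
Log2 ratio of tumor to reference against the marker score (log2) for 12 genes that were not part of the score, 1 point a tumor. For Sprr2d, Grhl3, Hey1 and Foxa1 the squamous-high and squamous-low tumors lie on opposite sides of 0, Krt5 and Trp63 overlap between the groups, and MSU_86 stands apart for Krt8 at -4.74.

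Hey1, a transcriptional repressor induced by Notch signaling, had the smallest adjusted p of all genes tested. Its log2 ratios were -1.63, -1.68, -1.41, -1.32 and -1.42 in squamous-high and 1.78, 1.65, 2.11, 1.68 and 1.56 in squamous-low tumors. The spread within each group was small (SD 0.16 and 0.21), and the difference was -3.25 ± 0.14 (adjusted p = 5.14e-06). Hey1 passed under all 27 other settings and in all 10 fits that left out a tumor, with differences between -3.36 and -2.65. Some of these repeat a fit. The scores without Krt1, without Sbsn or with each gene weighted equally left both groups unchanged. Leaving out Krt10 and leaving out Lor gave the same groups as each other, with MSU_45 entering the squamous-low tumors. Scan session as a block, session 1 alone and leaving out MSU_51 also gave the same result. In the 7 middle tumors, which the comparison did not use, it was -0.77 in MSU_62b, -0.49 in MSU_54 and 1.62, 1.49, 1.45, 1.21 and 2.64 in MSU_26, MSU_58, MSU_122a, MSU_84 and MSU_45. The tumors thus fell on 2 sides of the reference level with no value between -0.49 and 1.21. Hey1 was the only one of the 23 tested Notch pathway genes that passed, and the median of the list was -0.07 (0.14 with median centring of the arrays, which moved the median of all genes to 0.10). Hey2, its relative, was well above background on 2 of the 5 squamous-high arrays and differed by -1.17 ± 0.34 without overlap (adjusted p = 0.130), Notch1 by -0.17 ± 0.24 (adjusted p = 0.813), Hes1 by -0.08 and Jag1 by -0.24.

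Alarmins and cytokines of keratinocytes were higher for 9 of 25 tested genes and lower for none (median 1.12). S100a8, a subunit of the antimicrobial protein calprotectin, had log2 ratios of 0.69, -1.71, 1.79, 0.62 and -0.43 in squamous-high and -4.81, -4.27, -4.49, -4.78 and -4.70 in squamous-low tumors (4.80 ± 0.53, adjusted p = 0.00242), and S100a9 differed by 4.96 ± 0.49 (adjusted p = 0.00163). The highest tumor was MSU_51 and not MSU_86. Defb6, an epithelial defensin, was 6.96, 5.05, 6.87, 5.30 and 3.56 against 0.65, 0.16, 0.66, -0.03 and 0.16 (5.23 ± 0.57, adjusted p = 0.00242). The interleukin-36 family members Il1f6, Il1f5 and Il1f8 were higher by 4.78, 4.58 and 3.20, with 2, 3 and 1 of the 5 squamous-low arrays well above background, and Saa3, Defb14 and Il1rn by 3.12, 2.85 and 0.96. Il1a had no probe that passed the filter.

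S100a8 and S100a9 are also abundant in neutrophils, and the neutrophil list was examined beside them. Of its 16 tested genes 3 were higher, S100a8, S100a9 and Clec4d (1.64), and the median was 0.07 (0.79 with the log ratio of the scanner software and 0.59 with the tumor channel alone). At an unadjusted p under 0.05, 5 were higher and none lower, the other two being Il1r2 (1.21, groups not overlapping, adjusted p = 0.234) and Mmp9 (1.12, adjusted p = 0.212). Its mean log2 ratio ranged from -1.86 to -0.67 in squamous-high and from -2.65 to -1.75 in squamous-low tumors. The markers Ly6g, Mpo and Csf3r differed by -0.36, -0.36 and -0.01 (adjusted p = 0.461, 0.827 and 0.991). Of the sebaceous gland, melanocyte and Langerhans cell list, with 16 tested genes, Krt79 was higher, and the median was 0.11. Mc5r of sebocytes differed by 0.01 and Cd207 of Langerhans cells by 0.21. No gene passed among 24 macrophage genes (median -0.08), 23 T and B lymphocyte genes (0.07), 20 endothelial genes (-0.40), 26 fibroblast and collagen genes (0.17) and 22 adipocyte genes (-0.63), and 3, 2, 2, 1 and 8 of them had an unadjusted p under 0.05 (limma). Of the endothelial genes 1 of 20 and of the adipocyte genes 4 of 22 lay above 0, and with array weights 8 and 7 of them passed as lower.

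All 24 tested skeletal muscle genes lay below 0 in squamous-high minus squamous-low tumors, with a median of -0.88. Of these, 2 passed: Mb, myoglobin, fell by 2.19 ± 0.43 (adjusted p = 0.0267), and Myh2, a myosin of fast fibers, fell by 2.47 ± 0.49 (adjusted p = 0.0304). Over all genes tested, 0.990% were lower. With 1 tumor left out, Mb passed in 3 and Myh2 in 4 of 10 fits. Neither passed within scan session 1 or with onset as a covariate. None of the 24 passed among the late tumors alone or without MSU_97. The mean of the list ranged from -5.59 to -4.62 in squamous-high and from -4.42 to -3.10 in squamous-low tumors. The part of this difference in other results was not tested.

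**Figure D4:**
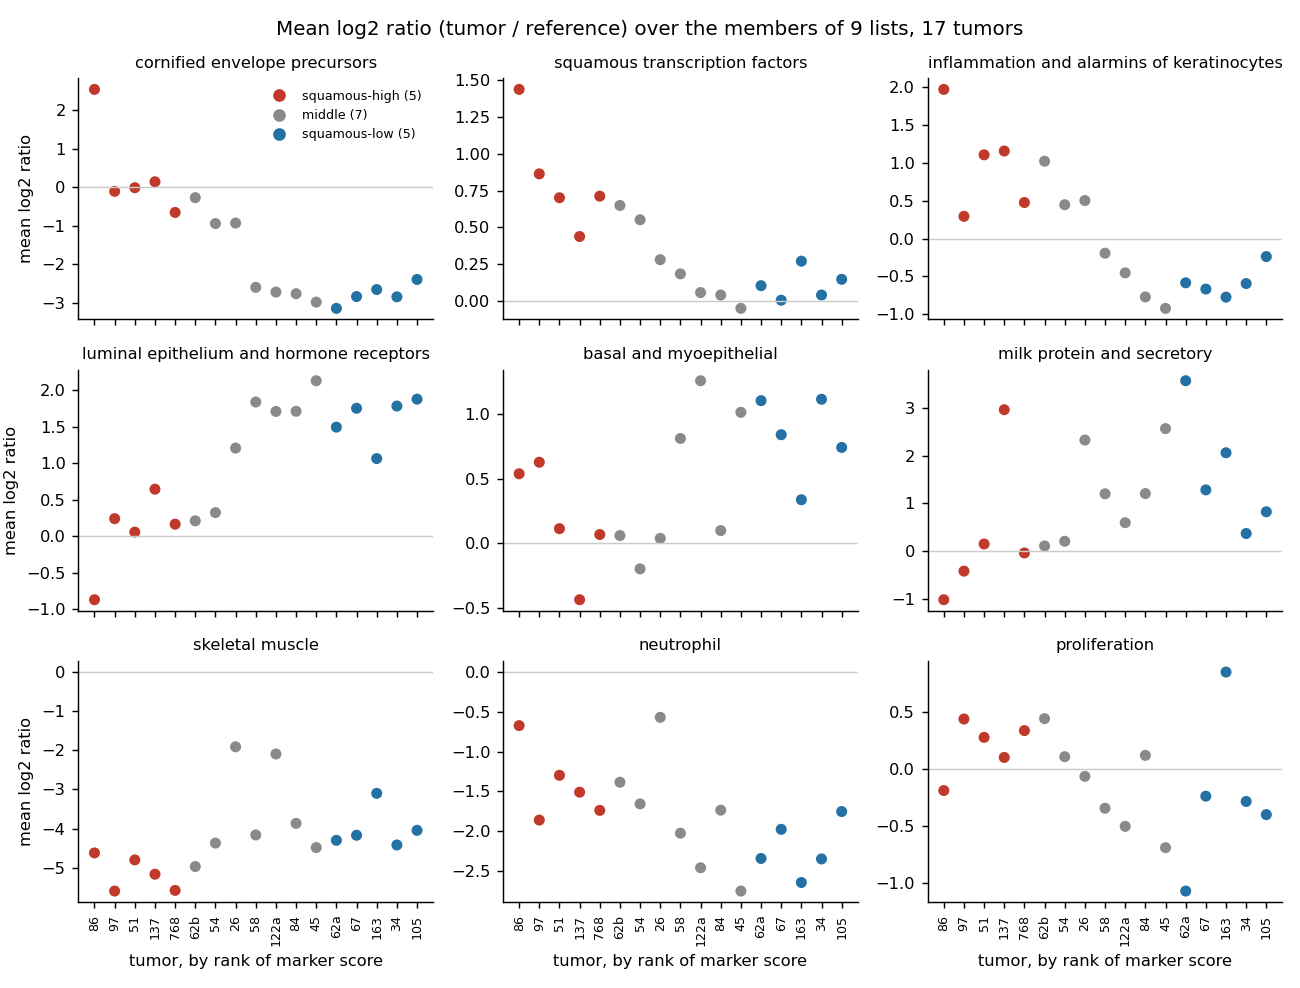
Mean log2 ratio (tumor over reference) over the tested members of 9 gene lists in 17 tumors ordered by marker score, 1 point a tumor. The cornified envelope mean ranges from -0.66 to 2.54 in squamous-high and from -3.15 to -2.40 in squamous-low tumors, the luminal mean from -0.87 to 0.64 and from 1.06 to 1.88, while the milk protein and proliferation means overlap.

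Of 38 tested proliferation genes none passed (1 at an unadjusted p under 0.05), while 37 lay above 0 (median 0.44). Without MSU_163 2 passed, and 10 passed with Krt10 left out of the score, while the median fell to 0.11 with onset as a covariate. Mki67 was -0.90, 0.04, -0.31, -0.14 and -0.10 in squamous-high and -1.43, -0.85, 0.78, -1.08 and -1.35 in squamous-low tumors (0.50 ± 0.39, adjusted p = 0.626). MSU_163 was the highest of the 10. Among 40 Wnt and beta-catenin genes none passed (11 at an unadjusted p under 0.05, and 3 passing without MSU_137), with a median of 0.07, and Ctnnb1 at 0.18 ± 0.35, Lef1 at 0.73 ± 0.50 and Wif1 at 1.35 ± 1.11. Wif1, a secreted Wnt inhibitor, was 3.78, 4.06 and 2.99 in the 3 early squamous-high tumors, -1.84 and 0.76 in the late ones, and 2.72 in MSU_163, the early squamous-low tumor, against -0.54 to 0.95 in the other squamous-low tumors. Of a list of 7 tested genes taken from PCR assays on these tumors none passed (0 at an unadjusted p under 0.05), with Ntf3, a neurotrophin, at 1.13 ± 0.84 and Bmp7, a bone morphogenetic protein, at 0.65 ± 0.54. Mycn, which is not in that list, differed by 0.76 ± 1.27 (adjusted p = 0.851).

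Among 25 milk protein and secretory genes 1 was lower, Mfge8, a protein of milk fat globules (-2.55 ± 0.44, adjusted p = 0.0165, with 0.0512 without MSU_51 and 0.0595 without MSU_67), and the median was -1.20. The count was 5 without MSU_137 and 0 without MSU_51, and the median was -0.16 among the late tumors alone. Csn3, a casein, differed by -3.28 ± 1.03 (adjusted p = 0.168). MSU_137 had a list mean of 2.96 against -1.01 to 0.15 in the other squamous-high tumors. Of 17 EGF family and ErbB genes Areg and Erbb4 (-1.06, well above background on 2 of the 5 squamous-high arrays) were lower. Neither passed without MSU_67. With 1 tumor left out, Areg passed in 9 of 10 fits and Erbb4 in only 3. The ligands Ereg and Hbegf differed by 2.22 and 1.08 without overlap of the groups but did not pass (adjusted p = 0.231 and 0.195). Egfr differed by 0.20 ± 0.37. Of 34 genes of mesenchymal transition and the claudin-low type, Cdh2, N-cadherin, was lower (-2.60 ± 0.43, adjusted p = 0.0131), and Vim differed by -0.71 ± 0.41 (adjusted p = 0.490). Over all genes tested 0.990% were lower, and a single call in a list of 25 or 34 genes says little about the list.

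Outside the 25 lists lay 106 of the 186 higher and 187 of the 207 lower genes. The 10 largest falls were taken among called genes with a RefSeq symbol whose groups did not overlap. Of these, 5 were in no list: Fcgbp, a mucin-like secreted protein (-5.15 ± 0.61, adjusted p = 0.00298), Pcp4, a calmodulin regulator (-4.96 ± 0.58, adjusted p = 0.00285), Gipc2 (-4.52), the angiotensin receptor Agtr1a (-4.42, with an adjusted p of 0.0597 to 0.0684 without MSU_97, MSU_51, MSU_34 or MSU_67) and the transporter Slc35f3 (-4.27). Cyp3a25 (-4.68) and Cyp3a57 (-4.38) were also called lower but were outside this selection.

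The called genes were then followed in tumors that the comparison had not used. In the 7 middle tumors, the slope of the log2 ratio on the marker score was above 0 for 185 of the 186 higher genes and for 1 of the 207 lower genes, against 47.7% of all genes tested. The median slope was -0.93 per log2 unit for the lower genes and above 0 for the higher genes. MSU_62b and MSU_54, with the highest scores of these 7 (-2.27 and -3.10), were early tumors. The other 5, with scores from -3.94 to -4.51, were late. Score and onset thus ran together in these 7 tumors, and the part of onset was not tested. The 7 tumors of slides 6 and 7 could be used for probes outside the dimmed rows (rows 101 to 410), which left 109 higher and 137 lower genes and 4 of the 6 marker probes. MSU_59b, an HFD-LFD late tumor, had a score over these 4 probes of -0.31, and the other 6 had scores between -5.07 and -3.46. The slope was above 0 for 108 of the 109 and for 3 of the 137, against 45.5% of 12313 genes. Without MSU_59b these counts were 102 and 6. Hey1 was outside the rows that could be used, and Foxa1 was -0.05 in MSU_59b and 3.49 to 4.68 in MSU_93, MSU_24, MSU_42 and MSU_59a, with -0.99 in MSU_96 and -1.17 in MSU_28. S100a8 was 4.68 in MSU_59b and -4.59 to -0.03 in the other 6. Genes share tumors and are not independent, so that these counts are a description.

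**Figure D5:**
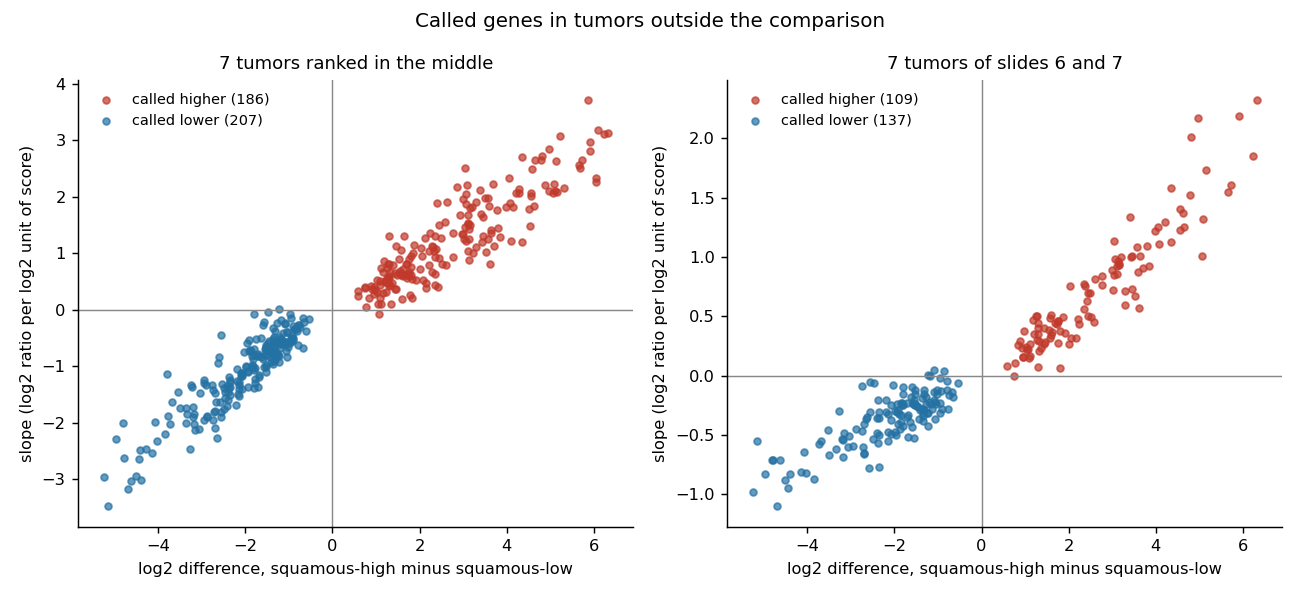
Slope of each called gene on the marker score (log2 ratio per log2 unit of score) in the 7 middle tumors (left) and in the 7 tumors of slides 6 and 7 (right), against its difference between squamous-high and squamous-low tumors. Of the higher genes 185 of 186 and 108 of 109 lie above 0, and of the lower genes 1 of 207 and 3 of 137 do.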

How the data were processed

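Spot intensities, background and flags were read as deposited. Per the labels and file headers, the authors made these intensity values and the log10 ratios (LogRatio) with Agilent Feature Extraction (version 8.5.1.1 in the submitters' processing notes; the headers name another release). The marker score used the deposited log10 ratios. For all other values, flagged and control spots were left out, mean intensities were background corrected (normexp, offset 50) and loess normalized within arrays with limma 3.58.1 in R 4.3.3. Of 39429 probes, 27230 were kept, whose signal over background exceeded 10 in Cy3 and in Cy5 in 80% or more of the 17 arrays, missing values (0.0145%) were imputed from 10 neighbours, and the brightest probe stood for each gene. Probes were named through RefSeq accessions or symbols, and 8054 kept the name in the files.

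Squamous-high was set against squamous-low with limma over 20905 genes, the 5 markers left out, with Benjamini-Hochberg adjustment at 0.05. A slope on the score over 17 arrays was fitted likewise. The tumors and gene lists were chosen with earlier results of these data known. Named by rule were the markers, the 10 largest rises and falls among called genes without overlap, the 2 smallest p of each list, and a set list of genes. Other genes named were chosen after their values were seen. Promoter letters were searched in 250 bases upstream of 32851 RefSeq starts outside chromosome 18. In data simulated for the comparison of 5 with 5 (20910 genes, 200 changed), 79.0% of changes of 2 log2 units and 97.5% of changes of 4 were recovered.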

Additional observations from a re-analysis of the deposited data

Results flagged for a closer look

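In 26 of 212 groups of 5 tumors, 1 tumor lay far from the other 4, that is, its gap to the nearest value, as a share of the range of the group, was above Dixon's critical value. Chance alone gives about 1 in 20 such groups, and the measures share tumors. This rate does not hold for the marker score, which chose the groups. The gap of the score in the squamous-high tumors is counted among the 26. Nor does the rate hold for measures that follow the score, such as the means of cornified envelope, suprabasal keratin and lipid barrier genes. MSU_86 and MSU_163 were the tumor in 10 cases each.

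Within the squamous-high tumors, MSU_86 had a gap of 0.807 of the range for the marker score. This score chose the group as the top of a ranking. Its gap is thus a description, to which the chance rate above does not apply. MSU_86 stood apart for Gipc2 (0.893), Areg (0.731), Vwf (0.799) and Dcn (0.756). It also stood apart for the list means of cornified envelope genes (0.751), suprabasal keratins (0.718), lipid barrier genes (0.856), EGF family genes (0.849) and sebaceous gland, melanocyte and Langerhans cell genes (0.764). MSU_137 stood apart for Trf (0.886) and Cd14 (0.905), and MSU_97 for Cdh2 (0.846) and the macrophage mean (0.801).

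Within the squamous-low tumors, MSU_163, the early one, stood apart for Krt6b (0.862), Cnfn (0.787), Cnn1 (0.755), Dsg3 (0.729), Mitf (0.808), Mki67 (0.735) and Cck (0.739), and for the means of the Notch (0.763), T and B lymphocyte (0.775) and skeletal muscle (0.716) lists. MSU_62a stood apart for Trf (0.891) and Hey2 (0.835).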

How the results depend on the processing

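The 393 genes between squamous-high and squamous-low tumors became 227 with scan session as a block and 227 within session 1, 251 with slide as a fixed block, 251 among late tumors, 103 for 4 against 4 tumors, 1041 for 6 against 6, 1597 for 8 against 8, 2912 with array weights and 1820 with Krt10 or Lor left out of the score, which put MSU_45 among the squamous-low tumors. With 1 tumor left out it ranged from 173 (without MSU_67) to 1053 (without MSU_163), and it was 232 without MSU_97, 227 without MSU_51, 239 without MSU_768, 245 without MSU_62a, 214 without MSU_34 and 224 without MSU_105. The share of higher genes, 47.3%, was 32.6% with array weights, 69.9% for 4 against 4, 37.1% for 6 against 6, 31.2% without Krt10 or Lor and 30.3% without MSU_163. The 1415 genes of the slope became 2141 with slide as a random block, and ranged from 1125 (without MSU_67) to 2142 (without MSU_86). Called genes shared with the result given kept their sign under each alternative. The causes were not tested. Of 3040 values of named genes under alternatives, some of which repeat the same fit, 2791 stayed on their side of the threshold. The call was lost in 122 and gained in 127. No gene called in either fit changed sign. Where neither fit called the gene, the sign could change, as for Wif1 (-0.61 to 2.69), Mycn (-0.79 to 1.85), Ctnnb1 (-0.37 to 0.63), Notch1 (-1.12 to 0.13), Epcam (-1.13 to 0.19), Egfr (-0.08 to 0.46) and Bmp7 (-0.03 to 0.97). No paired analysis was possible because the labels give no replicate numbers that would match 1 tumor to another; slides that held both groups entered as the block above. The number of arrays and signal over background limit what can be detected.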
